A study of Mus musculus with 22 samples.

Results

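The genes described here are 5 that build or protect the cohesin of meiosis, Rec8, Rad21l, Smc1b, Stag3 and Sgo2a, among 21887 protein-coding genes. They were followed through the windows of 50 kb that overlap them by at least 1 base at their GRCm38 RefSeq positions, which gave 9 of the 54520 windows of the mm10 genome. Cohesin is a ring that holds sister chromatids together and anchors the loops of the meiotic chromosome axis. In germ cells the kleisins REC8 and RAD21L close the ring in place of RAD21, SMC1B replaces the arm SMC1A, and STAG3 replaces STAG1 and STAG2. SGO2, the shugoshin encoded by Sgo2a in the mouse, recruits a phosphatase that shields REC8 from separase at centromeres in the first meiotic division.

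Chromatin immunoprecipitation and sequencing (ChIP-seq) was done on whole testis of heterozygous carriers of Robertsonian translocations, which fuse chromosomes at their centromeres. The mark γH2AX is histone H2AX phosphorylated on Ser139, laid down at DNA double-strand breaks and on unsynapsed chromosomes such as the X and Y of the sex body. H3.3 is a histone variant put into chromatin outside replication, mostly at active genes. At 4 weeks of age, γH2AX was measured in the carrier groups 1Rb_M, 1Rb_P and 3Rb (n = 3 libraries per group), with a single C57BL/6J library (B6) beside them. All carriers were F1 animals, with the parents (in the order of the labels) CBy.RBF-Rb(8.12)5Bnr/J and then B6.SPRET7MOLF12 for 1Rb_M, C57BL/6J and then CBy.RBF-Rb(8.12)5Bnr/J for 1Rb_P, and B6.SPRET7MOLF12 and then RBF/Dnj for 3Rb. H3.3 was measured at 6 weeks in 3 libraries each of 1Rb (with the strain label of 1Rb_M), 3Rb and the control Cg (B6.SPRET7MOLF12). The 3 inputs were 1 library each, titled 1Rb_M and B6 (both 4 weeks) and Cg (6 weeks), and none came from 3Rb. The labels give 1 translocation to the 1Rb crosses and 3 to 3Rb. From knowledge of RBF/Dnj and not from the labels, those of 3Rb join chromosomes 1 with 3, 8 with 12 and 9 with 14, so Sgo2a on chromosome 1 and Rec8 on chromosome 14 lie on joined chromosomes and the other genes do not. The crosses differ in parental strain as well as in translocations, and these cannot be told apart.

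Libraries held 11876426 to 128348440 counts. The X chromosome took 12.3 to 20.6% of γH2AX counts against 3.16 to 3.17% of the counts of the 3 inputs. Replicates 1 and 2 of 1Rb_M stood apart, each with 12.3% of counts on X, while the other γH2AX libraries ranged from 17.7 to 20.6%. The B6 γH2AX library was shallower, at 21535147 counts, and carries the supplier label Upstate in place of Millipore. It is given by its values with no test. In whole testis, a change in the mix of cells and a change in the mark per cell cannot be told apart. Nothing in the labels says that replicates are separate animals, and every p below is set by the spread among these libraries alone.

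The members were spread over 5 chromosomes. Rec8 lies in 1 window, chr14:55600001-55650000, together with Rnf31, Irf9, Ipo4, Tm9sf1 and Tssk4. Rad21l spans chr2:151600001-151650000, shared with Snph, and chr2:151650001-151700000, which holds its start and is shared with Tmem74bos. Smc1b spans chr15:85050001-85100000, shared with Fam118a, and chr15:85100001-85150000, which holds its start and parts of Fam118a and Ribc2. Stag3 spans chr5:138250001-138300000, with its start and 5 other genes (Nxpe5, Lamtor4, Map11, Gal3st4 and Gpc2), and chr5:138300001-138350000, shared with Pvrig. Sgo2a spans chr1:57950001-58000000, with its start and Kctd18, and chr1:58000001-58050000, shared with Aox1. At this width, signal cannot be assigned to a promoter, a gene body or one of the genes in a window. Windows without the gene start are called the 3′ part below.

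The promoters are shown because the 5 genes differ there in base composition: at the starts used, Rad21l has almost no CpG, and Smc1b and Stag3 are dense in them. Each line gives 260 bases in the direction of transcription, 250 before and 10 after a RefSeq start of GRCm38.p6, at chr14:55617916-55618175 (+ strand, Rec8), chr2:151668524-151668783 (- strand, Rad21l), chr15:85131948-85132207 (- strand, Smc1b), chr5:138280259-138280518 (+ strand, Stag3) and chr1:57985090-57985349 (+ strand, Sgo2a). Capitals mark TTCCCGC, a motif known for E2F6, and CACGTG, an E-box.
Rec8: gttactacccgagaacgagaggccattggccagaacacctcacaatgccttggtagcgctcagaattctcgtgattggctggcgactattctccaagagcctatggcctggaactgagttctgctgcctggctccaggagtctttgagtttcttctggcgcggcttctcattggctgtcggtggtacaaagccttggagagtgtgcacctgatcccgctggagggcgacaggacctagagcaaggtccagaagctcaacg
Rad21l: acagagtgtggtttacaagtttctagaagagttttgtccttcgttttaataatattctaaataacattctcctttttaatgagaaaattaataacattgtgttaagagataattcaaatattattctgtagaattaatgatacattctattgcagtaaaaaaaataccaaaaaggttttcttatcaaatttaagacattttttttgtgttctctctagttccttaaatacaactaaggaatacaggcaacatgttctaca
Smc1b: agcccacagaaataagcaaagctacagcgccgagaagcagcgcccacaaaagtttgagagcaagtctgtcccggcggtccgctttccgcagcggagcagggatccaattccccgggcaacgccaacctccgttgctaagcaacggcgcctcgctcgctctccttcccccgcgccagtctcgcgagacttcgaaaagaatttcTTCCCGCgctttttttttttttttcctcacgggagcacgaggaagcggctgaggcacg
Stag3: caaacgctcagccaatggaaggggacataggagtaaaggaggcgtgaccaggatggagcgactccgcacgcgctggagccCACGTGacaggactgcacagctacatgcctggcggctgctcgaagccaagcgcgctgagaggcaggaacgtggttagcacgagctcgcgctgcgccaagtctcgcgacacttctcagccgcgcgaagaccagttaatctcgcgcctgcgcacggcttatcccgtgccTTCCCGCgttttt
Sgo2a: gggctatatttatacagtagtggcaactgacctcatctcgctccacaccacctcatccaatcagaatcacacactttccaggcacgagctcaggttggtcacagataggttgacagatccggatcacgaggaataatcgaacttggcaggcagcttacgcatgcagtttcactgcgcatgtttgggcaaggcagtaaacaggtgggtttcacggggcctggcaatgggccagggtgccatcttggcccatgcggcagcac

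The starts used for Smc1b and Sgo2a are the outer ends of their RefSeq genes. Those of Rad21l (151668533, in a gene that begins at 151670622 on the - strand), Stag3 (138280509, in a gene that begins at 138272514) and Rec8 (55618166, in a gene that begins at 55618002) lie inside the gene, so other starts of these genes are not shown. Over these 260 bases the Rad21l promoter was 25.8% G and C with 1 CpG, and only 0.34% of the 32851 RefSeq promoters had a lower share of G and C. The Smc1b promoter held 26 CpGs and that of Stag3 held 28, against a median of 6 over all promoters. Rec8 (11 CpGs) and Sgo2a (9 at this start and 16 at a second start, chr1:57995724-57995983) lay between. Both strands were searched over the full 300 bases of the table, 250 before and 50 after each start. TTCCCGC was found once each for Smc1b (position -48 from the start), Stag3 (position -3) and Sgo2a (position 15, outside the printed stretch). It was found in 4.6% of all promoters. CACGTG was found once, at position -170 of Stag3, and in 7.15% of all promoters. The letters are a description of the sequence and not a measured site.

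Relative to input, H3.3 was above the autosomal average in the windows of Rec8, Stag3, Smc1b and Sgo2a and near that average in those of Rad21l. Values are log2 ratios to the pooled 3 inputs, each library scaled to the 13 autosomes in no translocation. A ratio is thus relative to the average of those autosomes, and one near it does not show absence of H3.3. Since every window is divided by its own input, levels may be compared between windows. In the start window of Stag3 the Cg libraries measured 0.80, 0.69 and 0.81, the 1Rb libraries 0.76, 0.79 and 0.76, and the 3Rb libraries 0.80, 0.65 and 0.72, a mean of 1.70-fold over input in Cg. Rec8 was at the same level, at 0.81, 0.72 and 0.73 in Cg, 0.68, 0.87 and 0.90 in 1Rb and 0.73, 0.74 and 0.72 in 3Rb. All 3 groups overlapped in both windows.

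The start window of Smc1b, the arm of the meiotic ring, measured 0.61, 0.63 and 0.76 in Cg, 0.60, 0.74 and 0.60 in 1Rb and 0.68, 0.61 and 0.57 in 3Rb. That of Sgo2a was lower, at 0.43, 0.41 and 0.43 in Cg, 0.37, 0.38 and 0.41 in 1Rb and 0.48, 0.43 and 0.43 in 3Rb. Rad21l, the other kleisin, measured -0.019, 0.070 and 0.008 in Cg, 0.023, 0.074 and 0.051 in 1Rb and -0.046, 0.027 and 0.024 in 3Rb, so the highest library reached 1.05-fold over input in its start window. The 3′ part of Rad21l had means of 0.097 in Cg, 0.077 in 1Rb and 0.062 in 3Rb. In each of the 9 H3.3 libraries every window of Rec8, Smc1b and Stag3 was above both windows of Sgo2a, and both windows of Sgo2a were above both of Rad21l. Within the upper 3 genes the windows overlapped: in Cg their means ran from 0.59 ± 0.081 (Stag3, 3′ part) to 0.77 ± 0.067 (Stag3, start; SD, n = 3), with 0.76 ± 0.048 in Rec8 between, and neighbours in that order did not differ beyond their spread. This order was read from the data and was not tested.

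**Figure D1:**
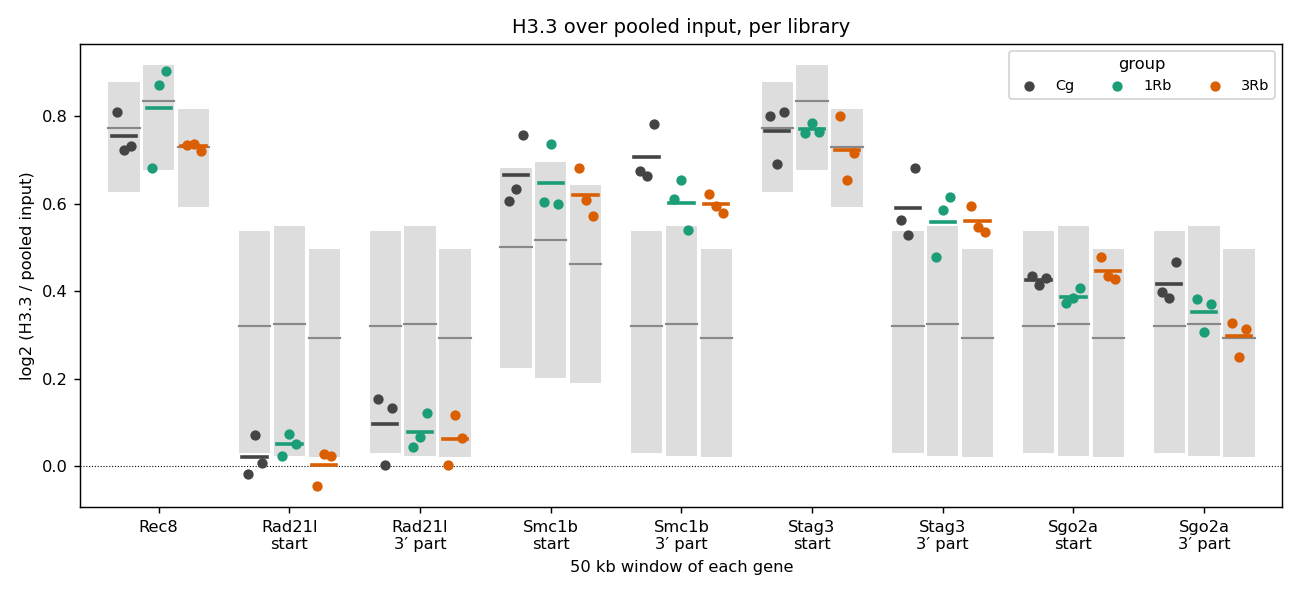
H3.3 over pooled input (log2, vertical axis) in the 9 windows of the 5 genes (horizontal axis) in Cg, 1Rb and 3Rb. Points are libraries, coloured bars group means, grey boxes the quartiles and grey lines the median of windows with the same number of genes on the 13 unjoined autosomes. Rad21l sits at 0 and below the middle of its box, Smc1b above it.

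H3.3 rises with gene content, from a median of -0.41 in Cg windows without a protein-coding gene to 0.77 in windows with 6, so each window was set beside those with its own number of genes. Rec8 and the start window of Stag3, with 6 genes each, were ordinary for their class: in Cg they exceeded 45.7 and 47.1% of 70 such windows. Among 3653 windows with 2 genes, the 3′ part of Smc1b exceeded 89.3% in Cg, 80.8% in 1Rb and 84.9% in 3Rb. The 3′ part of Stag3 exceeded 80.4, 76.3 and 81.7% in the same groups. The start window of Rad21l exceeded only 24.4, 26.4 and 23.7%. Of the 9 windows, 5 were above the median of their class in Cg, 5 in 1Rb and 6 in 3Rb. Over the 1 Mb on either side, the Rad21l start window was above only 6 of 39 neighbours in Cg, whose median was 0.36. The start windows of Smc1b and Sgo2a were above 38 and 35 of 39 neighbours, and that of Rec8 above 36 of 40.

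H3.3 at the meiotic cohesin genes did not pass the test in any comparison of carriers. Between 1Rb and Cg, where edgeR called 1.08% of 53117 windows higher and 2.62% lower (3.71% in either direction), 0 of 9 member windows were called and the log2 differences ran from -0.094 to 0.077. An unadjusted p under 0.05 was reached by 0 windows, and DESeq2 also called 0. Between 3Rb and 1Rb, with 2.08% of windows called higher and 4.02% lower (6.1% in all), 0 of 9 were called by edgeR and differences ran from -0.11 to 0.047. Again 0 windows had an unadjusted p under 0.05 and DESeq2 called 0. Without replicate 1 of 1Rb, the Rec8 window was called lower in 3Rb, at -0.18 with an edgeR adjusted p of 0.0394.

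Between 3Rb and Cg, with 3.34% of windows called higher and 6.16% lower (9.51% in all), 0 of 9 were called by edgeR and 0 by DESeq2, and 1 window had an unadjusted p under 0.05. That window was the 3′ part of Sgo2a, shared with Aox1. It measured 23.9, 23.3 and 24.6 CPM (counts relative to library depth, as scaled by edgeR) in Cg and 22.5, 21.3 and 22.3 in 3Rb, so the groups did not overlap. The log2 difference was -0.12 ± 0.050 (SE, n = 3 each) with an edgeR adjusted p of 0.135. With libraries scaled to the 20 windows on either side it was -0.14, at an edgeR adjusted p of 0.0342. The 3′ part of Smc1b also did not overlap, at 28.9, 28.1 and 30.6 CPM in Cg and 27.5, 26.9 and 26.7 in 3Rb, with a log2 difference of -0.11 ± 0.054 and an edgeR adjusted p of 0.222.

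Relative to input, γH2AX at the 5 genes lay close to the autosomal average in every group, unlike on the X. Each library was scaled to the autosomes in no translocation, so a ratio near that average does not show absence of γH2AX. In the 9 windows, the means of log2 ratios to input ran from -0.15 to 0.11 in 1Rb_M, from -0.17 to 0.21 in 1Rb_P and from -0.22 to 0.40 in 3Rb, and the B6 library ranged from -0.32 to 0.083. For scale, the start window of Smc1a, the X-linked somatic counterpart of Smc1b, was at 2.61, 3.09, 3.08 and 3.41 in 1Rb_M, 1Rb_P, 3Rb and B6. Against windows of like gene number, 4 of 9 member windows were above the class median in 1Rb_M, 4 in 1Rb_P, 6 in 3Rb and 4 in B6.

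**Figure D2:**
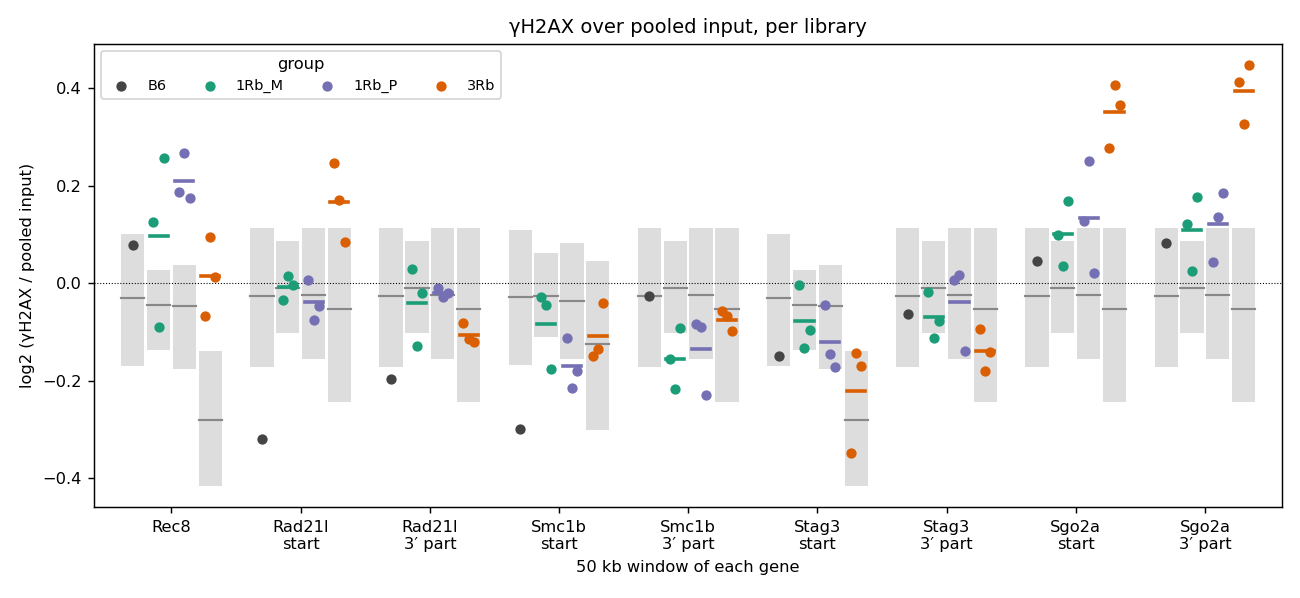
γH2AX over pooled input (log2, vertical axis) in the 9 windows (horizontal axis) in B6 (1 library), 1Rb_M, 1Rb_P and 3Rb. Points are libraries, coloured bars group means, and grey boxes and lines the quartiles and median of windows with the same number of genes. In both Sgo2a windows and the start window of Rad21l the 3 points of 3Rb lie above all points of the other groups.

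In 3Rb, γH2AX was higher than in either 1Rb cross over both windows of the shugoshin gene Sgo2a and the start window of the kleisin gene Rad21l. Against 1Rb_M, 3 of 9 member windows were called higher and 1 lower by edgeR, where 17.9% of 53118 windows were called higher and 20.2% lower (38.1% in all). Against 1Rb_P, the same 3 windows were higher and 1 other was lower, where 10.1% of windows were higher and 12.8% lower (22.9% in all). Both comparisons use the same 3Rb libraries. Over all 9 windows the median log2 difference was -0.055 against 1Rb_M and 0.039 against 1Rb_P, beside 0.014 and 0.0026 over all windows tested.

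The highest values were in Sgo2a. Its 3′ part, which contains most of the gene and part of Aox1, measured 0.41, 0.33 and 0.45 over input (log2) in the 3Rb libraries, 0.12, 0.025 and 0.18 in 1Rb_M, 0.043, 0.14 and 0.19 in 1Rb_P and 0.083 in B6. Every 3Rb library was above every other library. In CPM this was 18.6 ± 0.793 in 3Rb, 15.6 ± 0.707 in 1Rb_M and 15.6 ± 0.829 in 1Rb_P (SD, n = 3 each). The log2 difference was 0.26 ± 0.060 (SE) against 1Rb_M, with an edgeR adjusted p of 0.00103, and 0.25 ± 0.061 against 1Rb_P, with an edgeR adjusted p of 0.00235. It stayed called when any single library was left out, with a largest edgeR adjusted p of 0.017 and 0.0439, and without replicates 1 and 2 of 1Rb_M it was 0.21 with an edgeR adjusted p of 0.00843.

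The start window of Sgo2a measured 0.28, 0.41 and 0.37 over input (log2) in 3Rb, 0.10, 0.035 and 0.17 in 1Rb_M, 0.13, 0.25 and 0.022 in 1Rb_P and 0.047 in B6, again with no overlap. The log2 difference was 0.22 ± 0.064 against 1Rb_M (edgeR adjusted p = 0.00713) and 0.20 ± 0.065 against 1Rb_P (edgeR adjusted p = 0.0261). Leaving out replicate 1 or 3 of 1Rb_P, or replicate 2 or 3 of 3Rb, ended the call against 1Rb_P, with edgeR adjusted p between 0.0982 and 0.227. Without replicates 1 and 2 of 1Rb_M the difference from that group was 0.17 with an edgeR adjusted p of 0.0334. Scaling by library totals also ended the call against 1Rb_M (0.12, edgeR adjusted p = 0.119). Of the 9 member windows DESeq2 called only the 3′ part of Sgo2a, in both comparisons.

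Among windows with 2 genes on unjoined autosomes, the Sgo2a differences exceeded 96.9 and 98.5% against 1Rb_M, and 96.8 and 98.6% against 1Rb_P, in the order start window and 3′ part. Calls among those windows in the comparison with 1Rb_M were 7.8% higher and 34.3% lower. Among the 376 windows with 2 genes on chromosome 1 itself they exceeded 85.9 and 88.3% against 1Rb_M and 84.6 and 88.0% against 1Rb_P. Neighbours of Sgo2a moved too: of 39 windows within 1 Mb, 13 rose and 1 fell relative to 1Rb_M, while 10 rose and 0 fell relative to 1Rb_P. With each library scaled to the 20 windows on either side, neither window of Sgo2a passed, at log2 differences of 0.093 and 0.12 against 1Rb_M (edgeR adjusted p = 0.221 and 0.105) and 0.068 and 0.11 against 1Rb_P (edgeR adjusted p = 0.473 and 0.176). Sgo2b, a related gene on chromosome 8, had no called window. In the order 3′ part and start window, its log2 differences were 0.036 and -0.030 against 1Rb_M and -0.029 and -0.12 against 1Rb_P.

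**Figure D3:**
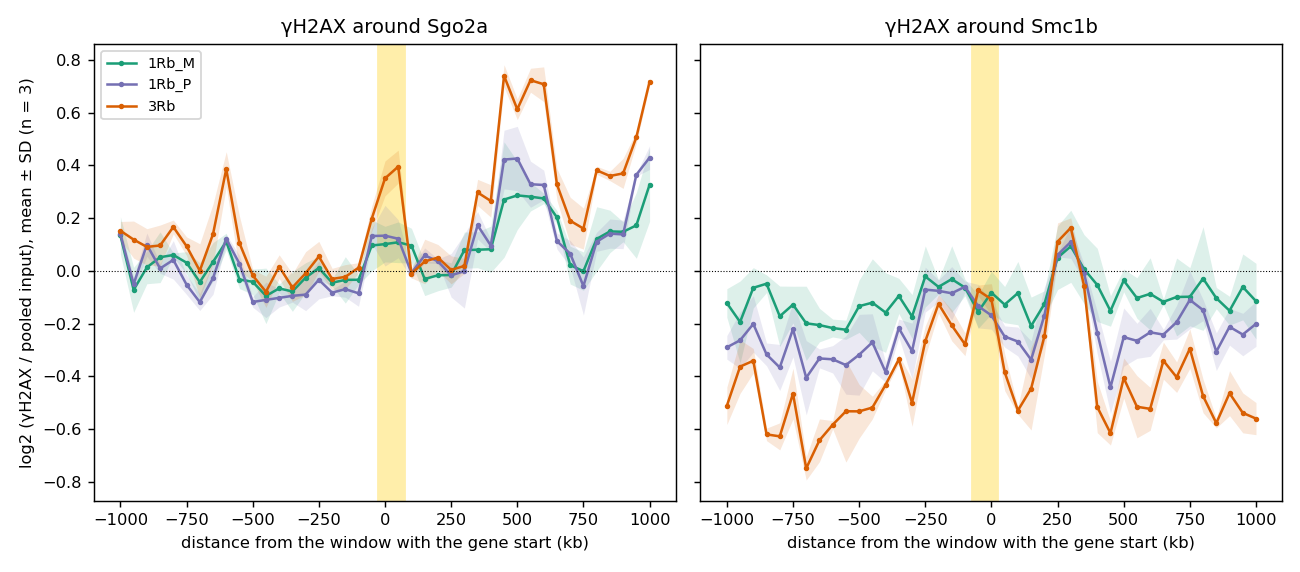
γH2AX over pooled input (log2, vertical axis) by distance in kb from the window with the gene start, around Sgo2a (left) and Smc1b (right), in 1Rb_M, 1Rb_P and 3Rb. Lines are means and bands SD of 3 libraries, and the yellow strip marks the windows of the gene. Around Sgo2a the 3Rb line rises at the gene and at several neighbours, and around Smc1b it falls at most neighbours but not at the gene.

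Rad21l, the kleisin of early prophase, differed in its start window, which holds the 5′ part of the gene and Tmem74bos. The 3Rb libraries measured 0.25, 0.17 and 0.085 over input (log2), 1Rb_M -0.034, 0.015 and -0.004, 1Rb_P 0.006, -0.075 and -0.046, and B6 -0.32. No 3Rb library overlapped the others, and B6 was lowest. The log2 difference was 0.15 ± 0.056 against 1Rb_M (edgeR adjusted p = 0.0379) and 0.19 ± 0.057 against 1Rb_P (edgeR adjusted p = 0.0152). Leaving out any of 4 libraries (replicate 1 or 3 of 1Rb_M, replicate 1 or 2 of 3Rb) ended the call against 1Rb_M, with edgeR adjusted p from 0.0505 to 0.221. Leaving out replicate 2 or 3 of 1Rb_P or replicate 1 of 3Rb ended it against 1Rb_P, with edgeR adjusted p from 0.053 to 0.131. DESeq2 did not call it in either comparison. Scaling by library totals ended both calls, at 0.048 (edgeR adjusted p = 0.631) and 0.17 (edgeR adjusted p = 0.0929). The call against 1Rb_M, but not that against 1Rb_P, also ended with replicate number as a block (edgeR adjusted p = 0.0508). The same held with only the 2 compared groups in the fit (edgeR adjusted p = 0.0893). Summed over its windows, Rad21l was called against 1Rb_M (0.11, edgeR adjusted p = 0.0437) but not against 1Rb_P (0.11, edgeR adjusted p = 0.0588).

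Without replicates 1 and 2 of 1Rb_M the difference of the Rad21l start window was 0.16 with an edgeR adjusted p of 0.0428. Scaled to the 20 windows on either side, it remained called, at 0.14 against 1Rb_M (edgeR adjusted p = 0.0401) and 0.15 against 1Rb_P (edgeR adjusted p = 0.046). It exceeded 91.1% of windows with 2 genes against 1Rb_M and 96.3% against 1Rb_P. The 3′ part of Rad21l, shared with Snph, measured -0.095 ± 0.059 and -0.11 ± 0.059, with edgeR adjusted p of 0.197 and 0.214. Under library totals it was called lower against 1Rb_M, at -0.19 with an edgeR adjusted p of 0.0425.

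Rec8, the kleisin that holds sister chromatids until the second division, was lower in 3Rb than in 1Rb_P. Its window measured -0.066, 0.096 and 0.014 over input (log2) in 3Rb, 0.19, 0.27 and 0.18 in 1Rb_P, 0.13, -0.090 and 0.26 in 1Rb_M and 0.078 in B6. 3Rb and 1Rb_P did not overlap, and 1Rb_M spanned both. The log2 difference from 1Rb_P was -0.22 ± 0.072 (edgeR adjusted p = 0.0284), and that from 1Rb_M -0.12 ± 0.072 (edgeR adjusted p = 0.2). Leaving out replicate 1 or 2 of 1Rb_P, or replicate 1 or 3 of 3Rb, ended the call against 1Rb_P, with edgeR adjusted p from 0.0673 to 0.164. The window was also called lower than in 1Rb_M without replicate 2 of that group (-0.20, edgeR adjusted p = 0.00955), without its replicates 1 and 2 (-0.25, edgeR adjusted p = 0.00174) and under library totals (-0.21, edgeR adjusted p = 0.00691).

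Windows with 6 genes had a median difference of -0.25 against 1Rb_P and -0.28 against 1Rb_M, and 70.0 and 75.7% of them were called lower. With libraries scaled to windows of the same gene number, the Rec8 difference turned to 0.019 against 1Rb_P (edgeR adjusted p = 0.88) and 0.15 against 1Rb_M (edgeR adjusted p = 0.0562). Its neighbours fell less: the 40 windows within 1 Mb had a median of -0.034 against 1Rb_P, with 6 called lower and 3 below the Rec8 window, and of -0.071 against 1Rb_M, with 12 below it. Scaled to the 20 windows on either side, Rec8 remained called against 1Rb_P, at -0.17 with an edgeR adjusted p of 0.0249, and was at -0.062 against 1Rb_M with an edgeR adjusted p of 0.448. By level, γH2AX in the Rec8 window exceeded 87.1% of windows with 6 genes in 1Rb_M, 97.1% in 1Rb_P, 94.3% in 3Rb and 70.0% in B6.

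Stag3, the meiotic STAG subunit, had 1 call. Its start window measured -0.003, -0.13 and -0.096 over input (log2) in 1Rb_M, -0.045, -0.14 and -0.17 in 1Rb_P, -0.35, -0.14 and -0.17 in 3Rb and -0.15 in B6. The 3Rb libraries were below all of 1Rb_M and overlapped 1Rb_P. The log2 difference from 1Rb_M was -0.17 ± 0.060 (edgeR adjusted p = 0.0263) and that from 1Rb_P was -0.12 ± 0.061 (edgeR adjusted p = 0.179). The call was lost without replicate 1 of 1Rb_M (edgeR adjusted p = 0.171), without replicate 1 of 3Rb (edgeR adjusted p = 0.2) and without replicates 1 and 2 of 1Rb_M (-0.13, edgeR adjusted p = 0.124). It was also lost in DESeq2. Scaled to windows of the same gene number the sign turned, to 0.091 against 1Rb_M and 0.12 against 1Rb_P, with edgeR adjusted p of 0.215 and 0.155. Neighbours fell here too, 26 of 39 against 1Rb_M and 17 of 39 against 1Rb_P. The 3′ part of Stag3 measured -0.099 ± 0.058 and -0.12 ± 0.059 and was not called, except against 1Rb_P without replicate 3 of that group (-0.18, edgeR adjusted p = 0.0461) and against 1Rb_M under library totals (-0.20, edgeR adjusted p = 0.0291). Library totals also moved the start window, to -0.27 against 1Rb_M with an edgeR adjusted p of 0.00214.

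**Figure D4:**
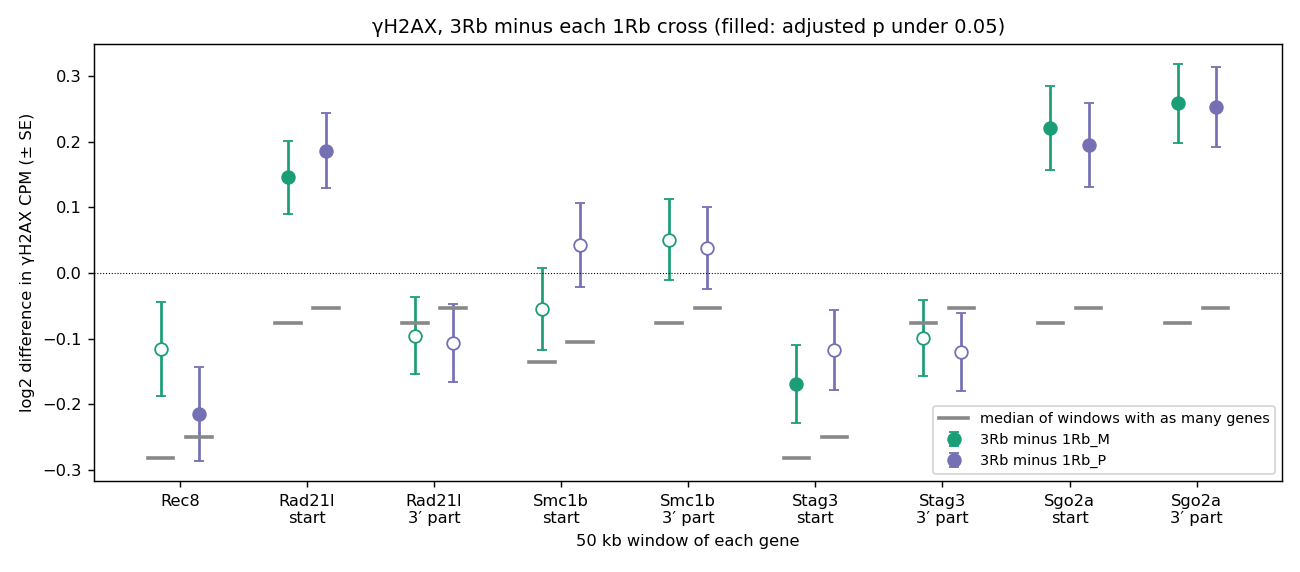
Log2 difference in γH2AX (vertical axis, fitted by edgeR, bars are SE) between 3Rb and 1Rb_M (green) and between 3Rb and 1Rb_P (purple) in the 9 windows (horizontal axis). Filled points have an adjusted p under 0.05, and grey bars are the median difference of windows with the same number of genes. Both Sgo2a windows and the Rad21l start window are filled and above 0, and the filled points of Rec8 and Stag3 are below 0.

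Smc1b was flat inside a region that fell. Its start window measured -0.027, -0.045 and -0.18 over input (log2) in 1Rb_M, -0.11, -0.21 and -0.18 in 1Rb_P, -0.15, -0.14 and -0.040 in 3Rb and -0.30 in B6. Its 3′ part measured -0.16, -0.22 and -0.092 in 1Rb_M, -0.084, -0.089 and -0.23 in 1Rb_P, -0.058, -0.068 and -0.097 in 3Rb and -0.026 in B6. The 3 carrier groups overlapped in both windows. The log2 differences were -0.055 ± 0.063 and 0.051 ± 0.062 against 1Rb_M and 0.043 ± 0.064 and 0.039 ± 0.062 against 1Rb_P, with edgeR adjusted p from 0.507 to 0.736. Of the 39 neighbours within 1 Mb, 35 were called lower in 3Rb against 1Rb_M, with a median of -0.36, and 25 against 1Rb_P, with a median of -0.23. The start window was above 37 and 39 of the 39 neighbours.

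With each library scaled to the 20 windows on either side, both windows of Smc1b were called higher in 3Rb. Against 1Rb_M the log2 differences were 0.27 (start) and 0.37 (3′ part), with edgeR adjusted p of 0.000788 and 3.11e-07. Against 1Rb_P they were 0.24 and 0.23, with edgeR adjusted p of 0.00477 and 0.00112. In that scaling a value is relative to the neighbourhood, so it shows unequal change and not a gain of Smc1b. The level of γH2AX in the start window was 0.93-fold of input in 3Rb, 0.94-fold in 1Rb_M and 0.89-fold in 1Rb_P.

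The crosses 1Rb_P and 1Rb_M have the translocation parent in opposite order, and their other parents differ in strain label. Between 1Rb_P and 1Rb_M, edgeR called 1.06% of windows higher and 0.299% lower (1.36% in all). Of the 9 member windows 0 were called by edgeR, 0 had an unadjusted p under 0.05 and DESeq2 called 0. Log2 differences ran from -0.098 ± 0.064 in the start window of Smc1b to 0.099 ± 0.071 in Rec8. Without replicates 1 and 2 of 1Rb_M, 0 were called as well. Without replicate 3 of 1Rb_M, which leaves those 2 libraries, the Rec8 window was called higher in 1Rb_P, at 0.17 with an edgeR adjusted p of 0.0336.

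The other 25 genes of the cohesin pathway on the list used here (somatic subunits, loaders, release and acetylation factors, the shugoshin Sgo1, its phosphatase, separase and kinases) cover 61 windows. In γH2AX, 15 were higher and 5 lower in 3Rb than in 1Rb_M, where 17.9 and 20.2% of all windows were, with a median log2 difference of 0.11 beside 0.014 over all windows. Against 1Rb_P, 13 were higher and 2 lower, where 10.1 and 12.8% of all windows were, with a median of 0.050 beside 0.0026. Over windows with a gene the medians were -0.017 against 1Rb_M and -0.016 against 1Rb_P. The pathway windows were not set beside windows of their own gene number. The medians of the list include the windows of Smc1a, Stag2 and Hdac8 on X, where replicates 1 and 2 of 1Rb_M had a lower share of counts. Stag1, the somatic counterpart of Stag3, on chromosome 9, which is joined in 3Rb, had 7 adjacent windows higher against 1Rb_M, from 0.18 ± 0.061 to 0.36 ± 0.062, and 5 against 1Rb_P. Nipbl, the cohesin loader, had 4 windows higher in each, up to 0.35 ± 0.060 against 1Rb_M. Wapl, the release factor, lies on chromosome 14, which is also joined in 3Rb. Both of its windows were higher, at 0.26 ± 0.061 and 0.27 ± 0.058 against 1Rb_M and 0.30 ± 0.062 and 0.37 ± 0.059 against 1Rb_P. Lower windows included those of the mitotic kinases Plk1, at -0.34 ± 0.061 and -0.28 ± 0.062, and Aurkb, at -0.25 ± 0.059 and -0.23 ± 0.060. Windows of 1 long gene are neighbours and not independent. Smc3, which is shared by both kinds of ring, and Rad21 had no call in either comparison.

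In H3.3 the same 61 windows had 0 higher and 3 lower calls between 1Rb and Cg, 0 higher and 5 lower between 3Rb and Cg, and 1 higher and 0 lower between 3Rb and 1Rb. All 5 lower in 3Rb lay on X, in Smc1a (-0.20 ± 0.055), Stag2 and the deacetylase gene Hdac8 (-0.23 ± 0.047 in its lowest window). The 1 higher window, overlapping Aurkc, the kinase of the meiotic centromere, was at 0.36 ± 0.051 with an edgeR adjusted p of 5.44e-07. The same window was lower in 1Rb than in Cg, at -0.22 ± 0.052. Aurkc overlaps chr7:6950001-7000000, shared with Usp29, and chr7:7000001-7050000, of which protein-coding genes cover 6.18%. The signal cannot be assigned to Aurkc at this width.

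Windows of 9 spermatid genes and of 6 Leydig cell genes had calls in γH2AX too, which does not count the cells of either kind. Of 8 spermatid windows, 4 fell and 0 rose in 3Rb relative to 1Rb_M, while 3 fell and 1 rose relative to 1Rb_P. Of 8 Leydig windows 0 were higher and 4 lower in each. Over all windows, 20.2% were lower in the first comparison and 12.8% in the second. Their part in the member results was not tested. In H3.3, 0 windows of either list were called in any comparison. Input counts in the member windows differed between the 3 inputs by log2 values from -0.27 (1Rb_M against B6) to 0.21 (B6 against Cg). Both extremes were in the Sgo2a start window. Each value lay within the central 95% of windows with a gene for that pair of inputs. Since no input came from 3Rb, differences of copy number or mapping in that cross could not be seen.

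For each start window, the windows with the most similar profile over the 19 immunoprecipitations were taken, on other chromosomes, by the root mean square difference of log2 ratios to input. Smc1b was closest to a window of N4bp2l2, Gm40353 and Pds5b on chromosome 5, at 0.049, where the median over all candidates was 0.47. Rec8 was closest to Ube2l3, Rimbp3 and Hic2 at 0.060, and Stag3 to Slc25a38, Rpsa and Mobp at 0.061. Sgo2a was closest to Zw10 and Tmprss5 on chromosome 9 at 0.062. Rad21l was closest to Sox5 at 0.067. The measure mostly follows the H3.3 level, which varies more between windows than γH2AX.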

How the data were processed

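The data are 22 ChIP-seq libraries of testis, with 19 immunoprecipitations and 3 inputs among them. The values deposited by the authors were taken to be raw counts per 50 kb window of mm10. CASAVA 1.8 and BWA are named in the submitters' processing notes; settings and duplicate handling are not given in the sources used here. Groups came from titles, although 1 input, titled 1Rb_M, has the strain of the 1Rb_P cross.

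Members and lists were chosen with earlier results of these data known. Gene positions, gene numbers and promoters came from the GRCm38.p6 RefSeq tables (46 of 46 list genes matched). For each mark, the 9 replicated libraries were fitted in edgeR 4.0.16 (R 4.3.3): windows of mean count at least 10, TMM factors, the quasi-likelihood test, p-values adjusted by Benjamini-Hochberg over all windows (53118 for γH2AX, 53117 for H3.3), and a call at an adjusted p under 0.05. CPM values are those scaled counts, with SD over 3 libraries; log2 differences carry their SE. Ratios to input are log2((count + 0.5)/(pooled input + 0.5)) after division by the summed counts of the 13 autosomes in no translocation, over windows with input 0.2 to 5 times the median (1503 windows fall outside). Windows of like gene content have the same number of protein-coding genes on those autosomes. Counting error of a member window was 1.45 to 6.64% in the immunoprecipitations, and covers sampling only. Replicates differed beyond sampling noise, with a chi-square per degree of freedom of 1.38 to 34.6 over 18 pairs.

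Named genes were all members with all their windows, Sgo2b, pathway genes called or the direct counterparts of members, and the closest windows by profile. Alternatives were a DESeq2 1.42.0 fit, library totals, scaling to windows of the same gene number or to the 20 windows on either side, no count filter, only the compared groups, a replicate block, leaving out each library, gene sums, start windows alone, and other inputs, added counts and classes for the ratios. Leaving out replicates 1 and 2 of 1Rb_M was chosen after seeing the data. The fit was tested on simulated data.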

Additional observations from a re-analysis of the deposited data

How the results depend on the processing

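The direction and side of the threshold were kept in 234 of 292 recomputed differences of single windows. Windows that turned sign in 3Rb against 1Rb_M did so under library totals (Smc1b 3′ part, -0.048), scaling to windows of the same gene number (Rec8 0.15, Smc1b start 0.072, Stag3 start 0.091), scaling to the 20 windows on either side (Smc1b start 0.27, Stag3 0.007 and 0.084), gene sums (Smc1b 0.072) and without replicates 1 and 2 of 1Rb_M (Smc1b start 0.063). Against 1Rb_P they were Rec8 (0.019) and Stag3 start (0.12) under scaling to the same gene number, and the Smc1b 3′ part without replicate 3 of 1Rb_P (-0.015, in a range up to 0.058 when other single libraries were left out). The cause was not tested.

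In counts of member windows against 1Rb_M, library totals gave 1 higher and 4 lower, DESeq2 1 and 0, gene sums 0 lower of 5 genes, and both local scaling and scaling to the same gene number 0 lower. Against 1Rb_P, DESeq2 gave 1 higher and 0 lower, gene sums 1 and 0 of 5 genes, and scaling to the same gene number 0 lower. For H3.3 in 3Rb against Cg, local scaling gave 1 lower. Leaving out 1 library gave 2 to 3 higher and 0 to 2 lower against 1Rb_M and 1 to 2 higher and 0 to 2 lower against 1Rb_P. It gave 0 to 1 higher between 1Rb_P and 1Rb_M (1 without replicate 3 of 1Rb_M) and 0 to 1 lower in H3.3 between 3Rb and 1Rb (1 without replicate 1 of 1Rb). With start windows alone, those above their class numbered 2 of 5 in 1Rb_P and B6 for γH2AX, and 2, 2 and 3 of 5 in 1Rb, Cg and 3Rb for H3.3.

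Deviations from the group mean correlated from -0.57 to 0.32 between same-numbered samples and from -0.45 to 0.44 between differently numbered ones. These values cannot show whether the numbers pair the samples, and the main fit used no pairing. With the replicate block, 2 member windows were higher and 1 lower against 1Rb_M, 3 and 1 against 1Rb_P, and 0 in the other comparisons. Counts over all windows moved more. Against 1Rb_M, 4492 to 12401 were called higher and 5723 to 16177 lower over all single changes. Leaving out 1 library gave 128 to 8116 higher and 8 to 5317 lower between 1Rb_P and 1Rb_M, where the full fit gave 565 and 159.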
